A study of Arabidopsis thaliana with 4 samples.

Results

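UDP-glycosyltransferase (UGT) genes were followed in leaf RNA of Arabidopsis thaliana on 4 Affymetrix ATH1 arrays. The members were all probe sets that name exactly 1 gene with a symbol of UGT followed by a digit, with UGT78D2 left out and no filter on signal. This gave 46 of the 22810 probe sets, 1 for each of 46 genes, in 11 families by UGT number. The RefSeq annotation used for symbols held 58 genes with such symbols, and 3 probe sets that name a UGT together with another gene were not used. Wild type was accession Col-0, with 2 arrays, and KO-nudx19, in the same accession, also had 2 arrays. In KO-nudx19 the gene NUDX19 is knocked out. Its product is an NADPH-cleaving enzyme of the Nudix hydrolase family, and its own transcript was not analysed here, so the labels could not be checked against it. The labels give neither the allele nor how many lines or plants stand behind a sample. Plants of both genotypes spent 1 week on MS medium with 3% sucrose and 2 weeks on soil, in days with 16 h of light (100 µmol m−2 s−1, 25 °C) and nights at 22 °C. Rosette leaves were harvested at 3 weeks.

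UGTs move a sugar from a UDP-sugar to a small acceptor such as a hormone, a flavonoid, a phenolic acid or a sterol, which usually makes the acceptor more soluble, less active or fit for storage in the vacuole. Plant UGTs are numbered by sequence likeness, so members of a family number are related in sequence, while their acceptors can differ within a family. In leaves they act in flavonol and sinapate ester synthesis, in glucosinolate synthesis and in the inactivation of cytokinin, auxin, abscisic acid and salicylic acid.

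Signals are linear values in arbitrary units, with a mean of 200 on each array once the highest and lowest 2% are left out. Probe sets bind with different strength, so signals of different probe sets do not rank their transcripts. Each signal was set against thresholds common to all probe sets and against the same probe set on other arrays. Within a genotype the arrays carry the replicate numbers 1 and 2, which the labels do not explain, and nothing says that they came from separately grown plants, so p-values here reflect only array-to-array spread, which may be technical. Transcripts added to the RNA in the laboratory (poly(A) controls) averaged (geometric mean) 116 in wild type and 98.2 in KO-nudx19 for number 1, against 19.9 and 21.0 for number 2. The genotypes were therefore also compared within each number. Of 8 leaf marker genes, 5 had a named probe set, with signals from 6551 to 19541. All 5 had both KO-nudx19 signals above both wild-type signals, as had 10.5% of the 13648 probe sets tested below. PRK had 6551 and 7123 in wild-type leaves against 9168 and 8117 in KO-nudx19 leaves. PSAE-1 had 8128 and 11740 against 12157 and 17750. Of 5 root markers the beta-glucosidase gene PYK10 had a named probe set, at 607 and 794 in wild-type leaves against 544 and 471 in KO-nudx19 leaves. None of the 5 flower markers had a named probe set. In whole leaves, fewer cells of a type and less RNA per cell cannot be told apart.

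All 11 UGT families had at least 1 member above the level taken as expressed, and most members of families 71, 73, 76 and 84 lay below it. A member was counted as expressed where all 4 arrays were at or above the 40th percentile of all signals (37.1). This held for 20 of 46 members, against 54.7% of the 22746 probe sets that are not array controls. Family 71 had 3 of 9 members above it, family 72 had 2 of 4, family 73 had 1 of 7, family 74 had 2 of 3 and family 76 had 3 of 8. Family 78 had 1 of 2, family 84 had 2 of 5 and family 85 had 3 of 5. The single members of families 80, 87 and 88 were above it. UGT72E2 and UGT85A7 were above it on 3 and 2 arrays. The other 24 members were below it on every array, with 27.7 as their highest signal. Of these, 10 were also below the 20th percentile (8.92) on all 4 arrays. They made up 21.7% of the 46 members, against 10.8% of the probe sets that are not controls.

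**Figure D1:**
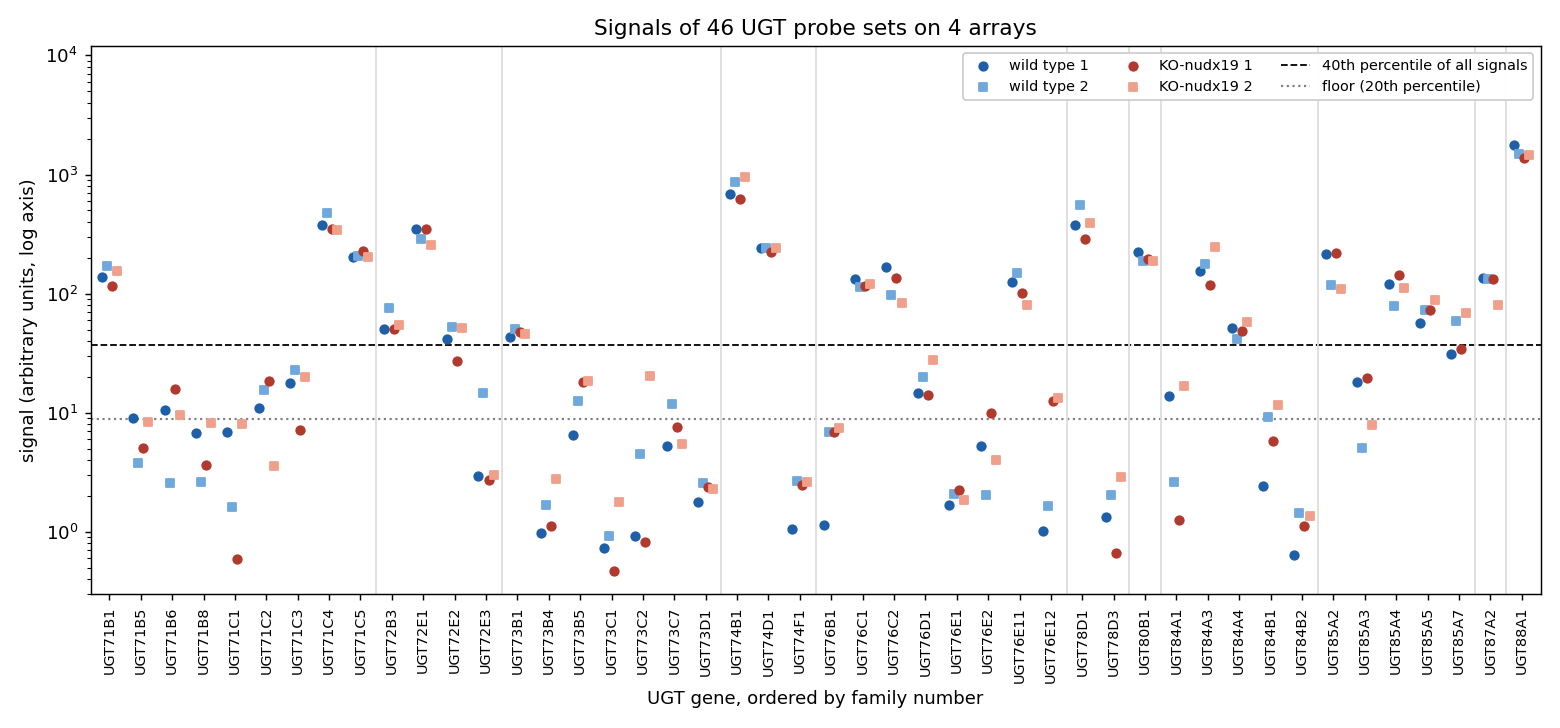
Signal of each of the 46 UGT probe sets on each array (arbitrary units, log axis), ordered by family number, with circles for the arrays numbered 1 and squares for those numbered 2, blue for wild type and red for KO-nudx19. The dashed line is the 40th percentile of all signals (37.1) and the dotted line the 20th (8.92). The plot shows 20 members with all 4 arrays above the dashed line and 24 with none.

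Differences between the genotypes were tested for the 22 members whose mean signal reached 38.2, the 40th percentile of mean signals. Signals below 8.92 were set to it, log2 was taken and limma was fitted to all 13648 such probe sets, with Benjamini-Hochberg adjustment over all of them. No UGT member passed an adjusted p of 0.05 and none had an unadjusted p under 0.05. Over all probe sets tested 0 passed, a share of 0%, and 89 had an unadjusted p under 0.05, a share of 0.652%. The log2 differences of the 22 members, KO-nudx19 minus wild type, ranged from −0.60 (UGT76E11) to 0.37 (UGT85A4). Their median was −0.075, against −0.00029 over all probe sets tested, with 8 members above 0 and 14 below. After centring each array on its median, 5 were above and 17 below. Centring moved all probe sets tested down as well, to a median of −0.042, with −0.12 for the members. The 95% confidence interval had a median half-width of 0.77 on the log2 scale over the members, that is 1.71-fold. For a typical member, differences up to that size did not reach an unadjusted p under 0.05. The adjusted p is stricter, so differences above that size could also fail to pass.

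**Figure D2:**
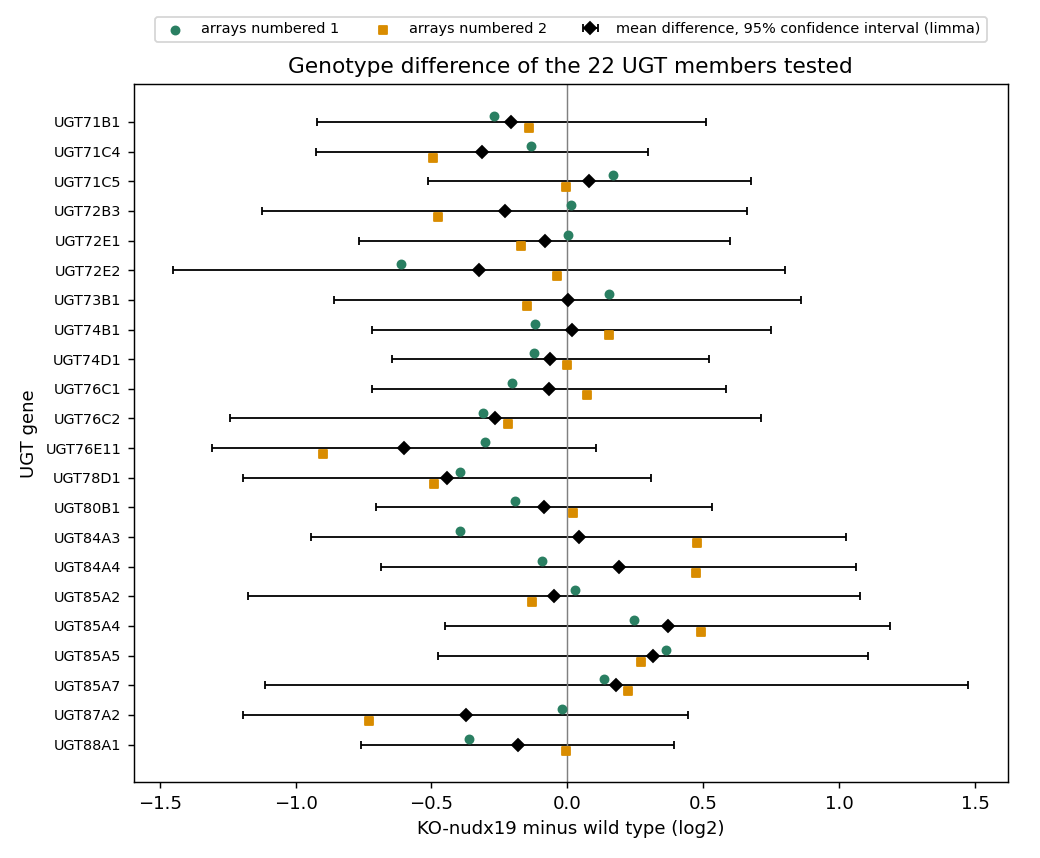
KO-nudx19 minus wild type on the log2 scale for the 22 tested UGT members. Diamonds are means over the 2 arrays per genotype with limma's 95% confidence interval, circles the difference between the arrays numbered 1 and squares that between the arrays numbered 2. All 22 intervals include 0, and the means lie between −0.60 and 0.37.

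Of the hormone glucosyltransferases listed, 4 could be tested (UGT74D1, UGT76C1, UGT76C2 and UGT71C5), and none passed limma's test between the genotypes. UGT76C1 (AT5G05870) and UGT76C2 (AT5G05860) attach glucose to ring nitrogens of cytokinins. UGT76C1 gave signals of 134 and 114 in wild-type leaves against 116 and 120 in KO-nudx19 leaves (replicates 1 and 2). The genotypes overlapped, with a log2 difference of −0.07 (SE 0.27). UGT76C2 had 169 and 97.9 in wild-type leaves against 136 and 84.2 in KO-nudx19 leaves. Its KO-nudx19 array was the lower one within each number, by −0.31 and −0.22 on the log2 scale, and both arrays numbered 2 lay below both numbered 1.

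UGT74D1 (AT2G31750), which glucosylates auxins, had 241.6 and 239.8 in wild-type leaves against 221.7 and 239.7 in KO-nudx19 leaves, so that 3 of 4 arrays were nearly equal. UGT71C5 (AT1G07240), which makes the glucose ester of abscisic acid, had 204 and 206 in wild-type leaves against 229 and 205 in KO-nudx19 leaves, a log2 difference of 0.08 (SE 0.24). UGT71B6 and UGT71B8, further enzymes of abscisic acid, were below 37.1 on every array, at 15.8 or less and 8.28 or less. Of the genes for salicylic acid, UGT74F1 and UGT76B1 stayed below the 20th percentile on all 4 arrays, at 2.69 or less and 7.50 or less. UGT84B1, an auxin enzyme, reached 11.6 and UGT73C1, which attaches glucose to cytokinins, reached 1.79. No brassinosteroid enzyme of the list used, UGT73C5 or UGT73C6, had a named probe set.

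UGT74B1 (AT1G24100), the S-glucosyltransferase that forms the glucosinolate core, had 681 and 858 in wild-type leaves against 628 and 953 in KO-nudx19 leaves. The arrays parted by number and not by genotype, with a log2 difference between genotypes of 0.02 (SE 0.30) and −0.12 and 0.15 within numbers 1 and 2.

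Among flavonol enzymes, UGT78D1 (AT1G30530), which adds rhamnose to the 3-position of flavonols, had 380 and 554 in wild-type leaves against 289 and 394 in KO-nudx19 leaves. The means were 467 ± 123 and 342 ± 74.1 (SD, n = 2 each), and the genotypes overlapped because KO-nudx19 replicate 2 lay above wild type replicate 1. Within each number KO-nudx19 was lower, by −0.39 and −0.49, with a log2 difference of −0.44 (SE 0.31, 95% confidence interval −1.19 to 0.31, limma adjusted p = 1.00). It ranged from −0.71 to −0.17 with single arrays left out. UGT78D3, a flavonol arabinosyltransferase, was at 2.91 or less on every array. UGT73B1 (AT4G34138), which accepts flavonoids, had 43.2 and 50.9 in wild-type leaves against 48.1 and 45.9 in KO-nudx19 leaves, with a log2 difference of 0.00 that was −0.08 after quantile normalization.

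The enzymes of sinapate and monolignols gave no common direction. UGT72E1 (AT3G50740), which acts on coniferyl and sinapyl aldehydes, had 350 and 289 in wild-type leaves against 351 and 257 in KO-nudx19 leaves. Both arrays numbered 1 were almost equal. UGT72E2 (AT5G66690), which forms monolignol glucosides such as coniferin, had 41.3 and 52.4 in wild-type leaves against 27.1 and 51.1 in KO-nudx19 leaves, and its log2 difference of −0.32 (SE 0.46) split into −0.61 within number 1 and −0.04 within number 2. UGT84A3 (AT4G15490), which makes glucose esters of hydroxycinnamates, had 154 and 178 in wild-type leaves against 117 and 248 in KO-nudx19 leaves. KO-nudx19 held both the lowest and the highest value, and the differences within numbers 1 and 2 were −0.40 and 0.48. Its relative UGT84A4 (AT4G15500) had 51.6 and 41.5 in wild-type leaves against 48.3 and 57.6 in KO-nudx19 leaves, with −0.09 and 0.47 within the numbers. UGT72E3 and UGT84A1, of the same pathways, were below 37.1 on every array, at 14.5 or less and 16.8 or less. UGT80B1 (AT1G43620), a sterol glucosyltransferase, had 224 and 186 in wild-type leaves against 196 and 189 in KO-nudx19 leaves, so the genotypes overlapped.

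Among the 22 tested members, the widest genotype difference was that of UGT76E11 (AT3G46670). It had 126 and 150 in wild-type leaves against 102 and 80.6 in KO-nudx19 leaves, so the genotypes did not overlap, with 1.24-fold between the nearest values. The means were 138 ± 17.2 and 91.3 ± 15.1 (SD, n = 2 each), and limma's log2 difference was −0.60 (SE 0.29, 95% confidence interval −1.31 to 0.11, limma adjusted p = 1.00). It was −0.30 within number 1 and −0.90 within number 2, and it ranged from −0.77 to −0.43 with single arrays left out. UGT71C4 (AT1G07250) had 380 and 479 in wild-type leaves against 346 and 340 in KO-nudx19 leaves, which did not overlap by 1.10-fold, with −0.13 and −0.50 within the numbers. UGT71B1 (AT3G21750) had 139 and 171 in wild-type leaves against 115 and 155 in KO-nudx19 leaves. It was lower in KO-nudx19 within each number, by −0.27 and −0.14, but the genotypes overlapped.

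UGT87A2 (AT2G30140), a gene known for an effect on flowering time, had 135.5 and 133.8 in wild-type leaves against 133.6 and 80.7 in KO-nudx19 leaves. A single array, KO-nudx19 replicate 2, stood apart, and the log2 difference of −0.37 was −0.01 without it and −0.74 without KO-nudx19 replicate 1. UGT88A1 (AT3G16520) had 1752 and 1475 in wild-type leaves against 1363 and 1471 in KO-nudx19 leaves. Its values within number 2 were nearly equal. UGT72B3 (AT1G01420) had 50.1 and 75.8 in wild-type leaves against 50.6 and 54.5 in KO-nudx19 leaves, so that wild type replicate 2 was the high array.

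Of the 22 tested members, 5 did not overlap between the genotypes, all lower in KO-nudx19. These were UGT71C4, UGT74D1, UGT76E11, UGT87A2 and UGT88A1. The share over all probe sets tested was 22.3%, made up of 10.5% higher and 11.8% lower in KO-nudx19, so the members' share in both directions together lay at the background. For UGT74D1, UGT87A2 and UGT88A1 the nearest values of the genotypes were within 1.01-fold.

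Within the replicate numbers, 12 of 22 tested members differed between the genotypes in the same direction in both, against 49.1% of all probe sets tested. Of these, 3 were higher in KO-nudx19 (24.3% over all) and 9 were lower (24.8% over all). Within each number taken alone 8 members were higher and 14 lower in KO-nudx19, while 48.7% of all probe sets tested were higher within number 1 and 50.7% within number 2. Opposite directions in the 2 numbers were seen for 10 members. No member differed by 0.5 or more on the log2 scale in the same direction in both numbers, and 2.03% of all probe sets tested did. Nor did any differ by 0.5 or more in opposite directions, as 2.27% of all probe sets tested did. The median log2 difference of the members was −0.12 within number 1 and −0.02 within number 2. Over all probe sets tested these medians were −0.01 and 0.01. With 1 array per genotype and number, these differences have no test.

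**Figure D3:**
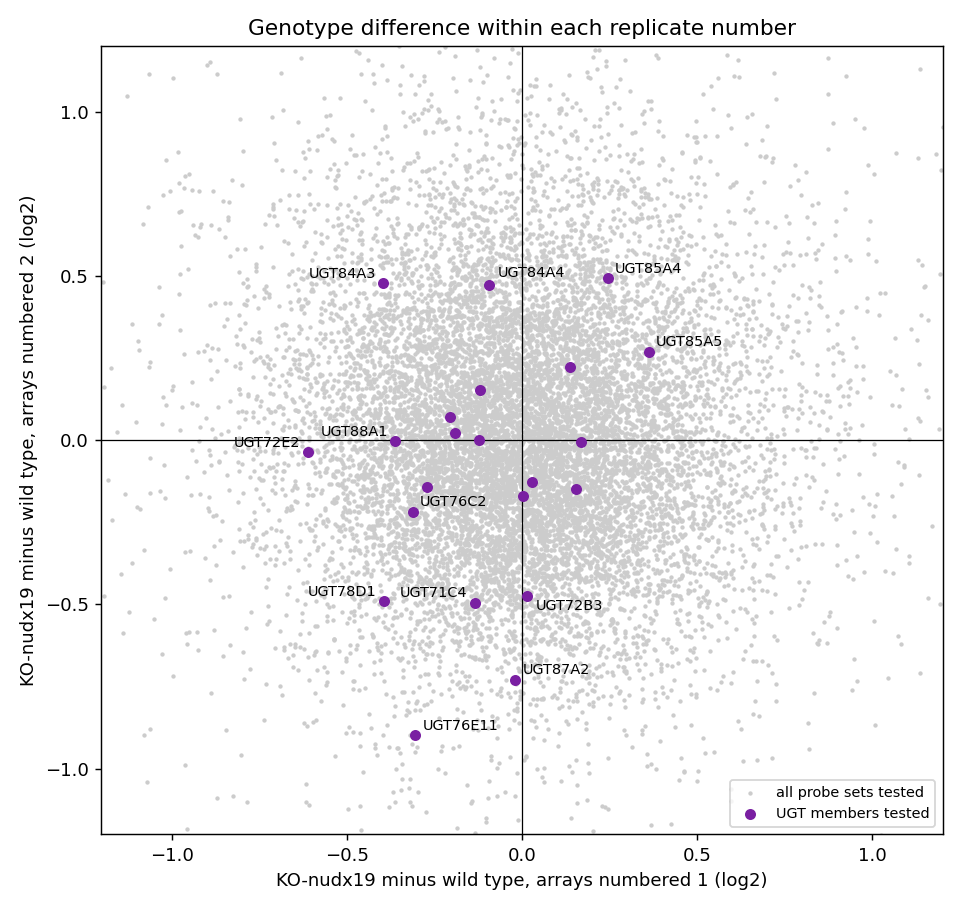
KO-nudx19 minus wild type on the log2 scale for the arrays numbered 1 (horizontal) and numbered 2 (vertical). Grey points are all probe sets tested, of which 347 lie outside the axes, and purple points are the 22 UGT members. The lower left quadrant holds 9 members, among them UGT76E11 and UGT78D1, and the upper right quadrant holds 3, all of family 85.

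By family number, the 3 tested members that were higher in KO-nudx19 within both numbers were all in family 85. UGT85A4 (AT1G78270) had 122 and 79.2 in wild-type leaves against 144 and 111 in KO-nudx19 leaves, with 0.24 and 0.49 within the numbers. UGT85A5 (AT1G22370) had 56.8 and 73.5 in wild-type leaves against 73.0 and 88.5 in KO-nudx19 leaves, with 0.36 and 0.27, and UGT85A7 (AT1G22340) had 31.2 and 59.3 against 34.3 and 69.2, with 0.14 and 0.22. In all 3 the genotypes overlapped and limma gave an adjusted p of 1.00. The fourth tested member of the family, UGT85A2 (AT1G22360), had 216 and 119 in wild-type leaves against 220 and 109 in KO-nudx19 leaves, with 0.03 and −0.13. The median log2 difference was 0.25 over the 4 tested members of family 85, −0.26 over the 3 of family 76, −0.23 over the 3 of family 72 and −0.21 over the 3 of family 71. The 3 tested members of family 72 and the 3 of family 76 all had a mean difference below 0. Those of family 84 (UGT84A3 and UGT84A4) were 0.04 and 0.19, and those of family 74 (UGT74B1 and UGT74D1) were 0.02 and −0.06. Within numbers 1 and 2 the family medians were 0.19 and 0.25 for family 85, and −0.30 and −0.22 for family 76. They were −0.13 and −0.14 for family 71 and 0.0015 and −0.17 for family 72. Family 84 had −0.25 and 0.48, and family 74 had −0.12 and 0.08. Differences between families were not tested.

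The difference between the replicate numbers was wider than that between the genotypes for 15 of the 22 tested members, a share close to the 66.8% of all probe sets tested. With genotype and number as terms in limma, 1 of the 22 members, UGT85A2, passed an adjusted p of 0.05 for the number, against 11.2% of all probe sets tested (4.93% higher and 6.32% lower on the arrays numbered 2). UGT85A2 was lower on the arrays numbered 2 in both genotypes, by −0.86 in wild type and −1.02 in KO-nudx19. The mean log2 difference between the numbers was −0.94 (95% confidence interval −1.45 to −0.44, limma adjusted p = 0.0143). The lower array numbered 1 was 1.82-fold above the higher array numbered 2. UGT85A2 kept its call under the other scalings, floors and eBayes options run and with a stricter filter, with adjusted p from 0.0105 to 0.0352, but without a filter on dim probe sets the adjusted p was 0.41, where 0 of 22746 probe sets passed.

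UGT76C2 was also lower on both arrays numbered 2, by −0.79 and −0.69 (limma adjusted p = 0.0642). UGT85A7 was higher there, by 0.92 and 1.01 (limma adjusted p = 0.0826). UGT84A3 differed by 0.21 in wild type and 1.08 in KO-nudx19 (limma adjusted p = 0.124). None of these 3 passed, though UGT84A3 passed after quantile normalization and UGT85A7 with eBayes without a trend. The poly(A) controls given above moved with the same split. The ratio of 3′ to 5′ actin signal, which rises as RNA breaks down, was 2.30 and 4.27 in wild-type leaves against 2.92 and 5.17 in KO-nudx19 leaves for a newer pair of array controls, and 22.0 and 20.6 against 12.2 and 20.5 for an older pair. Their part in the UGT differences was not tested.

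**Figure D4:**
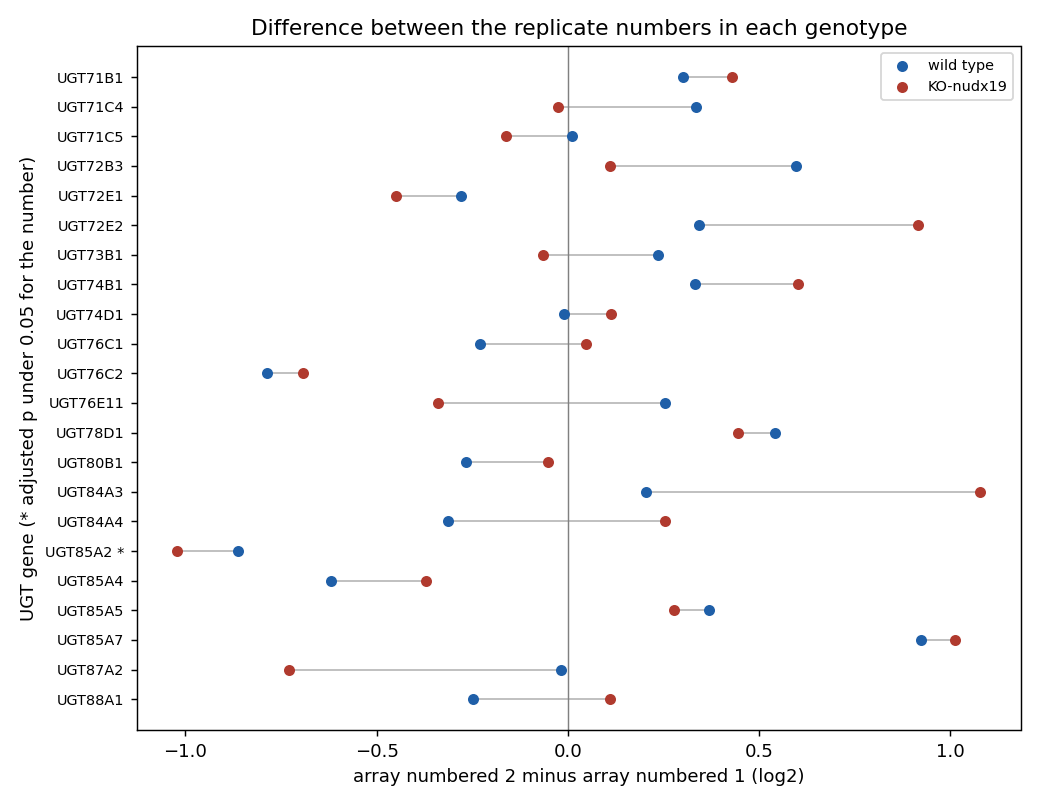
Array numbered 2 minus array numbered 1 on the log2 scale for the 22 tested UGT members, with blue points for wild type and red points for KO-nudx19. The star marks UGT85A2, the member that passed limma's test for the number (−0.86 and −1.02), and UGT85A7 lies on the other side of 0 (0.92 and 1.01).

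UGT genes often stand side by side in the genome. By gene order in TAIR10.1, 28 of the 46 members fell into 12 runs in which each member was the next or next but one protein-coding gene. In 4 of these runs some members were bright enough to be tested and others were not, in 7 none was, and in 1, that of UGT76C1 and UGT76C2, both were. Of the run UGT71C5, UGT71C4 and UGT71C3, the first 2 were tested and UGT71C3, which acts on methyl salicylate, was at 17.9 and 22.7 in wild-type leaves against 7.22 and 19.8 in KO-nudx19 leaves. Of the run UGT84A1, UGT84A3 and UGT84A4, UGT84A1 was at 13.8 and 2.60 in wild-type leaves against 1.26 and 16.8 in KO-nudx19 leaves. The run UGT85A7, UGT85A2, UGT85A5 and UGT85A3 held both UGT85A2, lower on the arrays numbered 2, and UGT85A7, higher there. UGT85A3 was too dim to be tested, at 18.1 and 5.08 in wild-type leaves against 19.8 and 7.94 in KO-nudx19 leaves. Copies in such runs can be alike in sequence, and how far a probe set also detects a neighbour is not known from the files, so values of close relatives are uncertain.

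Among the 24 members too dim to be tested, 3 (12.5%) had both KO-nudx19 signals above both wild-type signals, against 15.6% of all 9098 untested probe sets, and 0 had both below, against 12.2%. UGT76E12 (AT3G46660), the neighbour of UGT76E11, had 1.01 and 1.65 in wild-type leaves against 12.6 and 13.2 in KO-nudx19 leaves. Both wild-type values were below 8.92 and both KO-nudx19 values above it, and all were below 37.1. UGT73B5 (AT2G15480), a gene of responses to pathogens and oxidative stress, had 6.53 and 12.6 in wild-type leaves against 18.2 and 18.5 in KO-nudx19 leaves. UGT76B1 was below 8.92 on every array. When limma was fitted without the filter but with the floor, the adjusted p was 0.44 for UGT76E12 and 1.00 for UGT73B5. The floor set both wild-type signals of UGT76E12 to 8.92, so that fit does not measure their spread. The list of oxidative stress and xenobiotic response held 6 genes, of which 3 had a named probe set. The other members of it, UGT73B4 and UGT73C2, were at 2.79 or less, and at 4.54 or less on 3 arrays with 20.5 on KO-nudx19 replicate 2.

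Genes that supply the substrates were hardly covered. Of 26 genes of UDP-sugar supply, 1 had a named probe set, and of 14 genes that make phenylpropanoid acceptors, 0 had one. The gene measured was USP, whose enzyme makes UDP-sugars from sugar phosphates, with 272 and 275 in wild-type leaves against 263 and 336 in KO-nudx19 leaves. Its log2 difference of 0.12 was −0.05 within number 1 and 0.29 within number 2, and it did not pass (limma adjusted p = 1.00).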

How the data were processed

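The deposited table held intensity signals, 1 per probe set and array, and per the submitters' processing notes the authors used GCOS, the array maker's software. How background was removed, probes were summarised and a scaling target was set is not given in the sources used here. With the highest and lowest 2% of values left out, all 4 arrays had a mean of 200, which equalises average brightness and leaves differences in spread. Columns were matched to samples by identifier and groups taken from titles. Probe sets were named through the platform's annotation with symbols updated through RefSeq of TAIR10.1. All 46 UGT symbols were unchanged by this. No coordinates are given because the deposited values name no build.

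Signals were floored at the 20th percentile of all values, converted to log2, and tested for all probe sets other than the 64 array controls whose mean reached the 40th percentile. Fold changes on this scale understate changes of dim transcripts. limma 3.58.1 (R 4.3.3) was used with eBayes and a trend, and the code was tested on simulated data. Precision is limited by having 2 arrays per genotype. The members, lists and tests were chosen with earlier results of these data known. Text names every tested member, members of known acceptor groups, the member with the highest mean signal in each family, and UGT71C3, UGT85A3 and UGT76E12, which were chosen after their values were seen. Alternatives were other scalings, floors, filters, eBayes options, the replicate number as a block and leaving out single arrays. Those for the replicate number difference of UGT85A2 were added after seeing the data. Figures were drawn with matplotlib 3.10.9.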

Additional observations from a re-analysis of the deposited data

How the results depend on the processing

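The count of UGT members called between the genotypes was 0 under every alternative run, among them the replicate block (0 of 22, lowest block adjusted p = 0.827) and quantile normalization with the block (0). Over all probe sets tested, 0 passed in the fit reported, 2 with the block and 93 with quantile normalization and the block. With the block 1 member, UGT76E11, had an unadjusted p under 0.05 (4.55% of the members, against 5.41% of all probe sets tested), and it changed no call. Over the probe sets tested, the difference between the numbers in wild type correlated at 0.553 with that in KO-nudx19. The labels do not say that the number pairs samples. The median over members kept its sign except without a filter, where it was 0.

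The members called for the replicate number were 1 of 22 in the fit reported, against 11.2% of all probe sets tested. They were 2 of 22 after quantile normalization (13.6% over all) and 2 of 22 without a trend (8.72% over all). Without a filter 0 of 46 passed, as did 0 of all 22746 probe sets, and UGT85A2 stood at −0.94. Leaving out an array in the test for the number leaves no residual degrees of freedom, so it was not run. The members without overlap were 5 of 22, against 22.3% of all probe sets tested. With an array left out they were 13 to 14 of 22, since 3 arrays overlap less often. The share over all probe sets was not computed with an array left out, so those counts have no background beside them. The members above the expression threshold were 20, and 12 with the threshold at the 60th percentile (108). At that stricter threshold families 73 and 87 had no member above it on all 4 arrays.

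Of 22 named members tested, 10 kept the sign of their genotype difference under all alternatives run. Median centring turned UGT73B1 (−0.039), UGT74B1 (−0.025) and UGT84A3 (−4.0e-05), and quantile normalization turned UGT73B1 (−0.077 with and without the block). With single arrays left out the sign turned for UGT71B1 (−0.42 to 0.0091), UGT72B3 (−0.53 to 0.068), UGT72E1 (−0.31 to 0.14), UGT72E2 (−0.78 to 0.13), UGT73B1 (−0.12 to 0.12), UGT74B1 (−0.28 to 0.32), UGT76C1 (−0.18 to 0.047), UGT76C2 (−0.66 to 0.13), UGT80B1 (−0.22 to 0.048), UGT84A3 (−0.50 to 0.58), UGT85A2 (−0.56 to 0.46) and UGT85A7 (−0.33 to 0.69). Without a turn, single arrays moved UGT71C4 (−0.48 to −0.15), UGT85A4 (0.060 to 0.68), UGT85A5 (0.13 to 0.50), UGT87A2 (−0.74 to −0.010) and UGT88A1 (−0.31 to −0.059). The cause was not tested. Dim members are limited by signal over background.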
